A study of Sus scrofa with 8 samples.

Results

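This account covers genes of the proteasome and of the ubiquitin pathway in pig heart muscle. Members were the array probe sets whose platform annotation gave 1 gene symbol beginning with PSMA, PSMB, PSMC, PSMD, PSME, UBE2, UBE3, USP, FBXO or TRIM. The rule uses names and no measured value, except that each gene is represented by its brightest probe set, by the mean of all 8 arrays. It found 145 probe sets of 103 genes, out of 6765 named genes. Of these, 37 are proteasome genes and 66 belong to the other families. The 66 are called ubiquitin enzymes here by family name only, whatever each protein does. The proteasome genes are 7 PSMA, 9 PSMB, 5 PSMC, 12 PSMD and 4 PSME genes, and the ubiquitin enzymes are 24 UBE2, 2 UBE3, 16 USP, 13 FBXO and 11 TRIM genes.

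Ubiquitin is attached to proteins by a relay of an activating enzyme, a conjugating enzyme (the UBE2 family) and a ligase, which selects the substrate. F-box proteins (FBXO), TRIM proteins and UBE3 proteins belong to ligases, and the USP enzymes take ubiquitin off again. Tagged proteins are recognised and unfolded by the regulatory cap of the proteasome (PSMC ATPases and PSMD subunits) and cut inside a barrel of PSMA and PSMB rings, while PSME proteins are alternative activators of that barrel. In heart muscle this route renews contractile proteins, and the muscle-enriched ligases FBXO32 (atrogin-1) and the MuRF proteins, of which TRIM55 is one, are known from work on atrophy and cardiac remodelling.

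All animals were castrated male Yorkshire swine under 1 year old, with a mean weight of 54.5 kg, and all had a myocardial infarction. Tissue was left ventricular muscle away from the infarct, with 1 array for each animal. GGF2 (glial growth factor 2) belongs to the neuregulin-1 proteins, which signal to heart muscle cells by way of ERBB receptors. Per infusion, 3 animals received 0.67 mg/kg (low dose) and 2 received 2.0 mg/kg (high dose), both for 4 weeks, and 3 received none (untreated); there were no animals without infarction, so every difference is one among infarcted hearts. Each array is labelled with its own pig. The replicate numbers used here follow sample order and pair nothing.

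All values are log2 expression from RMA, on which a difference of 1 is a doubling. RMA makes the arrays' distributions alike, so differences are relative to the other genes of an array. The signal of one probe set cannot be set against that of another. Values under 3.80, the highest lower quartile of any array, were taken as close to background; the means of USP30, FBXO34 and TRIM59 lay there. Cardiomyocyte markers were present in all animals: 11 of 12 listed markers were measured, each with a mean of at least 10.39. Averaged over these 11 markers, with each gene centred on its mean over the 8 arrays, the level lay between -0.08 and 0.06 in untreated animals, between -0.06 and 0.01 in low-dose animals, and between 0.01 and 0.06 in high-dose animals. The gap between the 3' and 5' actin control probe sets, which widens as RNA degrades, was 4.88 to 5.26 in untreated animals, 5.48 to 6.04 in low-dose and 4.92 to 5.18 in high-dose animals. All 3 low-dose animals thus lay above the other 5 in this measure, and its part in the low-dose values below was not tested. The GAPDH gap ran from 1.09 to 1.65, with overlap among the groups.

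No member passed the limma test (adjusted p under 0.05 over 23999 probe sets) in any comparison. In high dose against untreated, 0% of all probe sets passed, and the smallest adjusted p of a member was 0.383, for UBE2C. In low dose against untreated 0% passed, and all 103 members had an adjusted p of at least 0.9975. In high against low dose 0.025% passed, and the smallest adjusted p of a member was 0.258, for UBE2D4. With both doses taken as 1 group against untreated 0% passed, and the smallest adjusted p of a member was 0.879, again for UBE2C. An unadjusted limma p under 0.05 was reached by 11, 8, 7 and 8 members in these comparisons, in the order given, as set out by direction below. The values below therefore describe these animals. The median standard error of a member's difference was 0.15 for high dose and 0.14 for low dose against untreated. The 95% confidence interval of a difference reached a median of 0.35 to either side at the high dose and 0.31 at the low dose. These intervals are not adjusted for the number of probe sets, so larger changes could also go undetected. UBE2C differed by -1.25 at the high dose and did not pass.

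At the high dose, proteasome subunits were higher than in untreated animals more often than lower, by small amounts. The mean was higher for 27 of the 37 proteasome genes, with a median difference of 0.09, or 1.06-fold. The median over all named genes was 0.02, and 53.8% of them were higher. The high-dose and untreated animals did not overlap for 13 of the 37, all higher at the high dose, which is 35.1%; among all probe sets, 14.7% were higher without overlap and 12% lower. An unadjusted limma p under 0.05 was reached by 5 proteasome genes, all higher (PSMB3, PSMC1, PSMC3, PSMC5 and PSME1), or 13.5%. Of all probe sets, 7.97% had this in either direction and 3.61% higher. Of all named genes, 9.56% had it in either direction and 4.61% higher, and 16% were higher and 13% lower without overlap. In bulk tissue a lower level can mean fewer cells of a type or less RNA in each cell, and these cannot be told apart. The count of higher genes was 24 to 29 over the alternatives, while the median was 0.05 without high-dose replicate 1 and 0.04 after renewed quantile normalization.

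**Figure D1:**
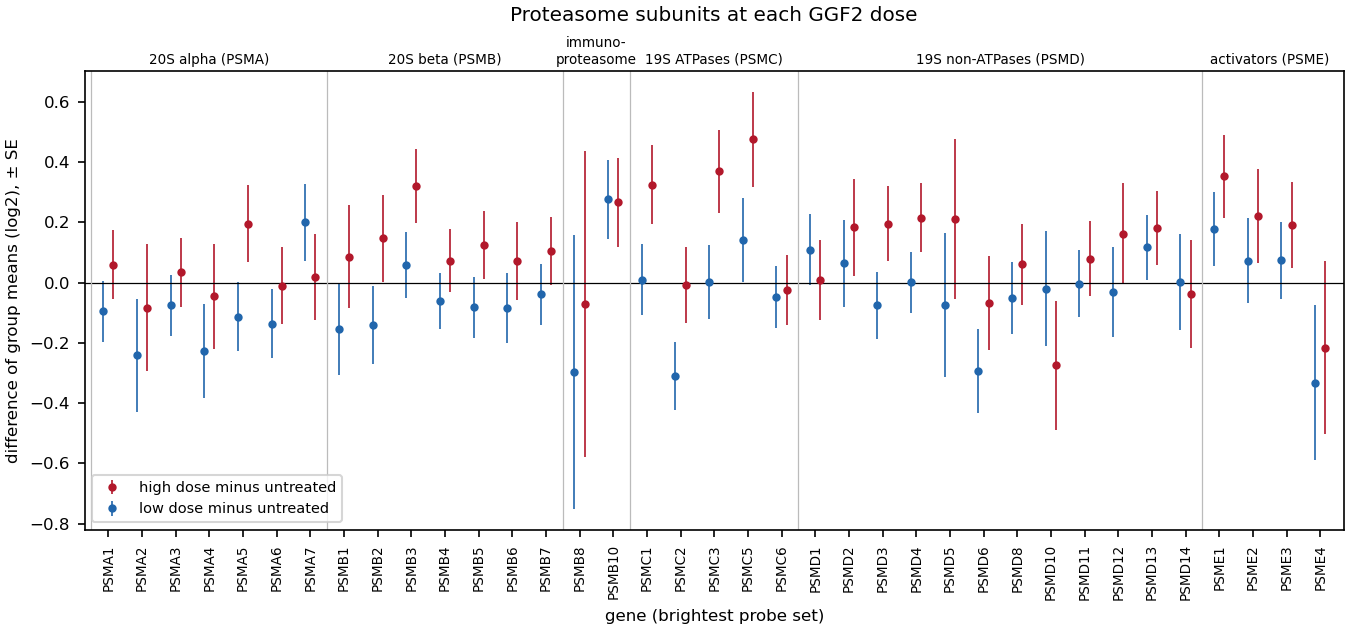
Difference of group means on the log2 scale (y axis, ± SE) for each of the 37 proteasome genes (x axis), in red for high dose minus untreated and in blue for low dose minus untreated. The red points lie above 0 for 27 genes and the blue points for 14, and most bars reach or cross 0.

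At the low dose, 14 of the 37 proteasome genes had a higher mean than in untreated animals, and the median difference was -0.05 (-0.03 with untreated replicate 1 left out and -0.02 with low-dose replicate 1 left out). It was -0.0045 with untreated replicate 2 and low-dose replicate 1 both left out, and -0.07 after median centring. Among all named genes 48.3% were higher at the low dose, with a median of -0.007. The same untreated animals serve in both comparisons, so the comparisons are not independent. Of the 37, 1 was higher and 2 were lower without overlap, beside 5.23% and 3.87% of all probe sets. Set directly against the low dose, 32 of the 37 were higher at the high dose, with a median of 0.16, or 1.11-fold. Among all named genes 54.1% were higher in that comparison, with a median of 0.02. Without overlap, 14 of the 37 were higher and 2 lower (PSMA7 and PSMD1), or 37.8% and 5.41%, beside 13.2% and 13% of all probe sets. The count of higher genes was 30 to 34 over the alternatives. The median was 0.12 without low-dose replicate 1. That animal had the lowest value of all 8 for 14 of the 37 genes, and high-dose replicate 1 had the highest value for 15 of them.

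The outer rings of the barrel are built from PSMA subunits, which form the gate through which substrates enter. At the high dose 4 of the 7 were higher than untreated, with a median of 0.02, which turned to -0.05 after renewed quantile normalization or without high-dose replicate 2, and to just under 0 without untreated replicate 2. In low-dose animals 6 of 7 were lower, with a median of -0.11 (-0.06 without low-dose replicate 1), and PSMA7 was the one with a higher mean, by 0.20 ± 0.13 (SE). PSMA5 was 9.23, 9.22 and 9.21 in untreated animals, 9.01, 9.01 and 9.30 in low-dose and 9.38 and 9.46 in high-dose animals. Both high-dose animals lay above all others, while the low-dose animals lay on either side of the untreated ones. The high-minus-low difference of PSMA5 was 0.31 ± 0.13 (SE; limma adjusted p = 0.464). PSMA7, the brightest of the ring's probe sets, averaged 11.77 ± 0.15 in untreated (SD, n = 3), 11.97 ± 0.17 in low-dose (n = 3) and 11.79 ± 0.08 in high-dose animals (n = 2). It ran against the rest of its ring, with the high dose lower than the low dose by 0.18 on the log2 scale and without overlap.

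The inner rings carry the cutting sites, and the 7 constitutive PSMB subunits shared a direction at the high dose. All 7 were higher than untreated, by 0.07 to 0.32, with a median of 0.11, and all 7 were highest in the same animal, high-dose replicate 1. Without that animal the median was 0.04, and after renewed quantile normalization it was 0.02. In low-dose animals 6 of 7 were lower, with a median of -0.08 (-0.04 without low-dose replicate 1). Taking both kinds of ring together, 12 of 14 barrel subunits were lower at the low dose (11 to 13 over the alternatives), and low-dose replicate 1 was the lowest animal for 9 of the 14. PSMB3, a subunit without a cutting site, was 8.31, 8.23 and 8.13 in untreated, 8.20, 8.41 and 8.24 in low-dose and 8.62 and 8.47 in high-dose animals. The high-dose animals were above all others, and the difference from untreated was 0.32 ± 0.12 (SE; limma adjusted p = 0.553). PSMB5, which carries the chymotrypsin-like site, was 10.62, 10.60 and 10.58 in untreated, 10.47, 10.49 and 10.59 in low-dose and 10.82 and 10.63 in high-dose animals. Its high-dose animals again lay above all others, replicate 2 only narrowly. The mean difference from untreated was 0.13 ± 0.11 (SE), with a 95% confidence interval of -0.13 to 0.38. It was 0.03 without high-dose replicate 1, 0.22 without high-dose replicate 2 and 0.08 after renewed quantile normalization. PSMB1, the brightest probe set of these subunits, averaged 11.03 ± 0.07 (SD, n = 3), 10.88 ± 0.30 (n = 3) and 11.12 ± 0.05 (n = 2) in untreated, low-dose and high-dose animals.

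PSMB8 and PSMB10 replace constitutive cutting subunits in the immunoproteasome, the form induced by interferon. PSMB10 was 7.45, 7.73 and 7.80 in untreated, 8.04, 7.84 and 7.93 in low-dose and 8.05 and 7.81 in high-dose animals. All 5 treated animals lay above all 3 untreated ones, although high-dose replicate 2 exceeded the highest untreated animal by less than 0.01. The difference was 0.28 ± 0.13 (SE) for the low dose and 0.27 ± 0.15 for the high dose (limma adjusted p = 0.998 and 0.713). Without untreated replicate 1 these were 0.17 and 0.16, and the high-dose difference was 0.15 without high-dose replicate 1. PSMB8 was 5.21, 5.40 and 6.95 in untreated, 5.88, 5.90 and 4.91 in low-dose and 5.97 and 5.60 in high-dose animals. Its groups overlapped throughout, and the high-dose difference of -0.07 ± 0.51 (SE) became 0.48 without untreated replicate 3. Of 22 listed interferon and antigen presentation genes, 16 were measured; 5 were higher at the high dose, with a median of -0.05, and 4 at the low dose, with a median of -0.12. Their mean level, taken the same way, lay between -0.22 and 0.43 in untreated, -0.44 and 0.51 in low-dose and -0.37 and 0.40 in high-dose animals.

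The PSMC ATPases form the ring that unfolds substrates and opens the barrel, and they held 3 of the 5 proteasome genes with an unadjusted p under 0.05 at the high dose. PSMC5 was 9.23, 9.43 and 9.11 in untreated, 9.51, 9.50 and 9.19 in low-dose and 9.86 and 9.60 in high-dose animals. Both high-dose animals were above the other 6, with a difference from untreated of 0.48 ± 0.16 (SE), or 1.39-fold (limma adjusted p = 0.493). PSMC3 was 10.26, 10.56 and 10.52 in untreated, 10.51, 10.48 and 10.36 in low-dose and 10.92 and 10.71 in high-dose animals. Its high-dose animals were also above the other 6. Their mean exceeded untreated by 0.37 ± 0.14 (SE) and the low dose by the same 0.37 (limma adjusted p = 0.543 and 0.418). PSMC1 was 9.08, 9.28 and 8.91 in untreated, 9.05, 9.16 and 9.10 in low-dose and 9.39 and 9.44 in high-dose animals. The high-dose animals were again the highest, with differences of 0.33 ± 0.13 (SE) from untreated and 0.32 ± 0.13 from the low dose. PSMC1 and PSMC3 differed from untreated by 0.01 ± 0.12 and 0.00 ± 0.12 (SE) at the low dose.

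The brightest probe sets of the other ATPases did not show this difference from untreated: PSMC6 was -0.02 at the high dose and PSMC2 was -0.01. PSMC2 was 10.83, 10.98 and 10.85 in untreated, 10.74, 10.54 and 10.44 in low-dose and 10.83 and 10.92 in high-dose animals. Here the low-dose animals stood apart, below all others, with a difference from untreated of -0.31 ± 0.11 (SE; limma adjusted p = 0.998). The 2 other PSMC2 probe sets did not repeat this, with low-dose differences of -0.02 and -0.01. Unlike the brightest one, they were higher at the high dose than untreated without overlap, by 0.13 and 0.34. All 5 ATPases were higher at the high than at the low dose, with a median of 0.32, which was 0.29 after renewed quantile normalization and 0.36 after median centring.

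**Figure D2:**
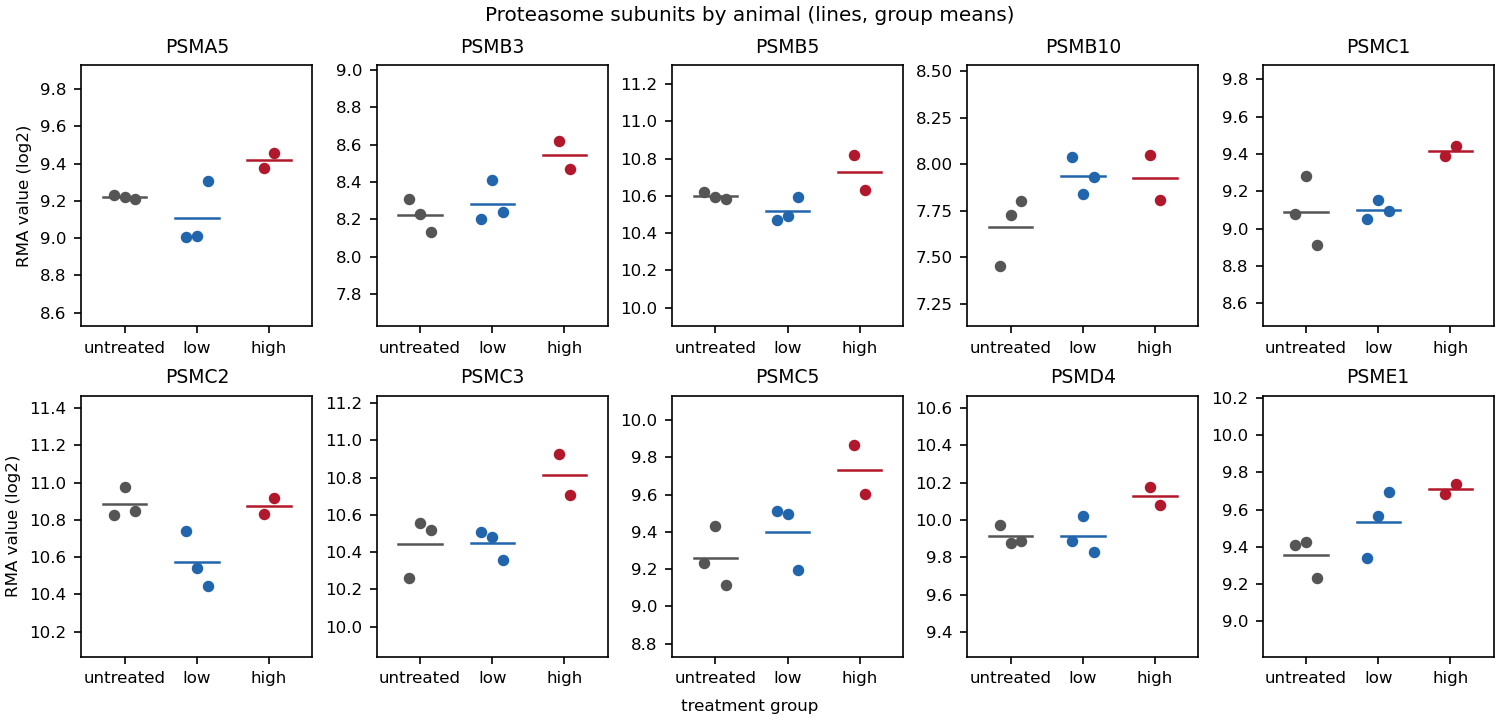
RMA values (y axis, log2) of 10 proteasome subunits in each animal, by treatment group (x axis); points are animals and lines are group means, and each panel spans the same range of log2 units. In PSMC1, PSMC3, PSMC5, PSMB3, PSMA5, PSMB5 and PSMD4 both high-dose animals lie above the other 6, while PSMC2 has its low-dose animals lowest and PSMB10 its untreated animals lowest.

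The PSMD subunits bind and prepare ubiquitin-tagged substrates. At the high dose 9 of 12 were higher than untreated, with a median of 0.12. PSMD3, PSMD4 and PSMD13 were higher without overlap, or 25% beside 14.7% of all probe sets. The median was 0.05 without untreated replicate 2 and 0.07 without untreated replicate 3. PSMD4, a receptor for ubiquitin chains, was 9.97, 9.88 and 9.89 in untreated, 9.89, 10.02 and 9.83 in low-dose and 10.18 and 10.08 in high-dose animals. The high-dose animals lay above all others, and their mean exceeded untreated by 0.22 ± 0.11 (SE; limma adjusted p = 0.699). PSMD11, a subunit of the lid, averaged 10.52 ± 0.12 (SD, n = 3), 10.52 ± 0.12 (n = 3) and 10.60 ± 0.04 (n = 2) in untreated, low-dose and high-dose animals. Its 2 dimmer probe sets gave larger high-minus-low differences, 0.84 and 0.29 against 0.08 for the brightest one. PSMD10 (gankyrin), an assembly chaperone and not part of the finished proteasome, was lower at the high dose by 0.27 ± 0.21 (SE) with overlapping groups. PSMD1, the brightest probe set of the PSMD subunits, differed from untreated by 0.01 ± 0.13 at the high dose.

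Among the activators, PSME1 and PSME2 form the interferon-inducible PA28 ring, PSME3 forms its nuclear counterpart and PSME4 is PA200. PSME1 was 9.41, 9.42 and 9.23 in untreated, 9.34, 9.56 and 9.70 in low-dose and 9.68 and 9.74 in high-dose animals. The high-dose animals were above all untreated ones, and the low-dose animals spread over both ranges. The difference at the high dose was 0.35 ± 0.14 (SE), or 1.28-fold (limma adjusted p = 0.564). PSME2 averaged 8.92 ± 0.16 (SD, n = 3), 8.99 ± 0.11 (n = 3) and 9.14 ± 0.27 (n = 2), and PSME3 averaged 7.79 ± 0.01, 7.86 ± 0.16 and 7.98 ± 0.23, in the same order. PSME4 was lower at the high dose, by 0.22 on the log2 scale, with overlapping groups.

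Medians per animal show where these subgroup differences sit. With each gene centred on its mean over 8 arrays, the median of the 37 proteasome genes was 0.01, -0.01 and -0.03 in untreated, -0.12, -0.02 and -0.01 in low-dose and 0.16 and 0.09 in high-dose animals. The groups did not overlap between high and low dose or between high dose and untreated, and high-dose replicate 1 lay farther from the other animals than replicate 2 did. PSMC medians were 0.21 and 0.17 in the high-dose animals and between -0.18 and 0.02 in the other 6. PSMA medians overlapped among all groups.

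**Figure D3:**
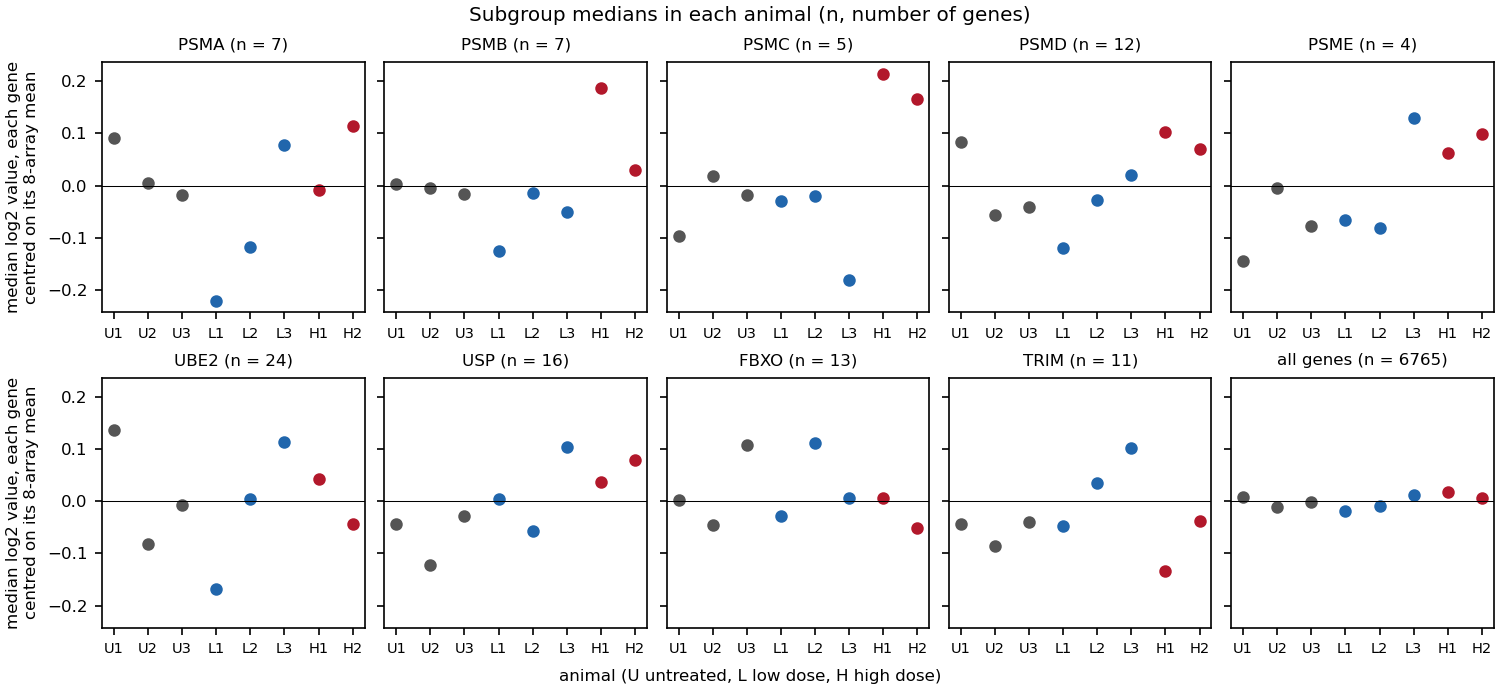
Median over the genes of a subgroup (y axis, log2 value of each gene centred on its mean over 8 arrays) in each animal (x axis; U untreated, L low dose, H high dose, with replicate number). The PSMB and PSMC panels place both high-dose animals above the other 6. In the UBE2, FBXO and TRIM panels the high-dose animals overlap the untreated ones. In the USP panel both high-dose animals (0.04 and 0.08) lie above all untreated ones and overlap the low-dose ones. The medians over all 6765 named genes stay close to 0.

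The ubiquitin enzymes as a whole showed no such lean, though the USP family within them did at the high dose (12 of 16 higher). At the high dose 33 of the 66 were higher than untreated, with a median of 0.00; 11 were higher and 10 lower without overlap, or 16.7% and 15.2%, near the 14.7% and 12% of all probe sets. Their low-dose median was also 0.00, with 33 of 66 higher. An unadjusted p under 0.05 was reached by 6 of the 66 at the high dose, 2 higher and 4 lower, and by 7 at the low dose, 3 higher and 4 lower, which is 9.09% and 10.6%. Over all probe sets 7.97% passed that line at the high dose (3.61% higher, 4.36% lower) and 4.5% at the low dose (2.77% higher, 1.74% lower). Over all named genes it was 9.56% at the high dose and 3.87% at the low dose.

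**Figure D4:**
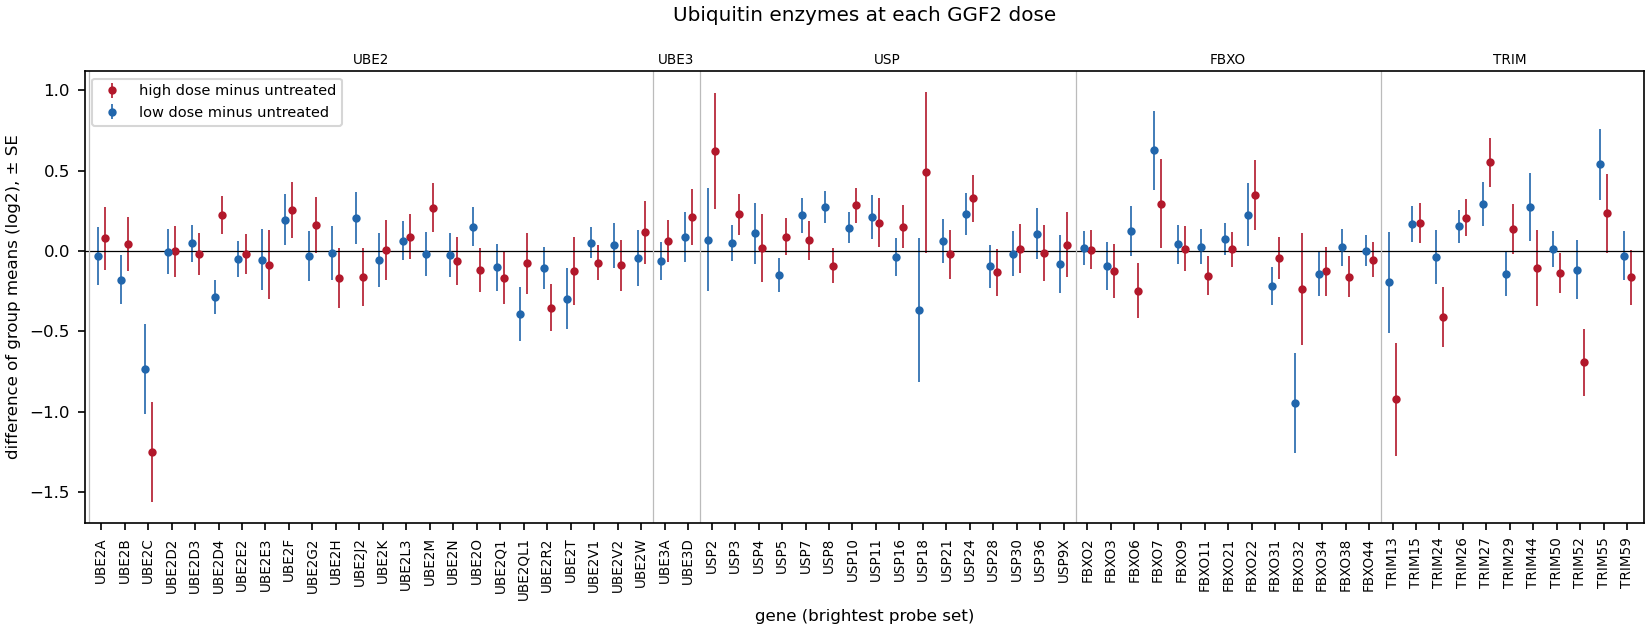
Difference of group means on the log2 scale (y axis, ± SE) for each of the 66 ubiquitin enzymes (x axis), in red for high dose minus untreated and in blue for low dose minus untreated. Points scatter on both sides of 0, and UBE2C lies lowest at the high dose with -1.25, followed by TRIM13 with -0.92 and TRIM52 with -0.69.

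Among the 24 conjugating enzymes UBE2C had the most negative difference at each dose. UBE2C serves the anaphase-promoting complex, which drives exit from mitosis. UBE2C was 6.88, 6.16 and 5.59 in untreated, 5.57, 5.56 and 5.30 in low-dose and 4.96 and 4.96 in high-dose animals. All 5 treated animals lay below the untreated ones, though low-dose replicate 1 missed the lowest untreated animal by only 0.02. The difference was -1.25 ± 0.31 (SE) at the high dose, or 2.38-fold lower, and -0.73 ± 0.28 at the low dose, or 1.66-fold lower (limma adjusted p = 0.383 and 0.998). The low-dose value was -0.40 without untreated replicate 1, the animal with the highest level. A second UBE2C probe set was close to background, at a mean of 3.59, and differed by -0.02 at the high dose. Of 20 listed cell cycle genes 17 were measured, and none of the 17 was higher at the high dose, with a median of -0.30. Of the 17, 2 had means below background, the lowest at 2.92. The mean level of the 17 was 0.19 to 0.56 in untreated, -0.15 to -0.02 in low-dose and -0.38 to -0.33 in high-dose animals. That is the same order of groups as UBE2C, and the part of these genes in the result was not tested. Of 9 measured macrophage markers (of 12 listed), 8 were lower at the high dose, with a median of -0.52; their mean level lay between -0.09 and 0.38 in untreated and between -0.13 and 0.47 in low-dose animals, and at -0.54 and -0.40 in high-dose animals. Of 8 measured fibroblast markers (of 9 listed), 7 were lower, with a median of -1.01; their mean level lay between -0.07 and 0.57, between 0.02 and 0.29, and at -0.91 and -0.46. No marker of either list was below background, and the part of these cells in the high-dose values was not tested.

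UBE2D4, a general partner of many ligases, and USP8, a deubiquitinase that acts on endosomal cargo, had the doses on opposite sides of untreated. UBE2D4 was 7.09, 6.98 and 7.05 in untreated, 6.74, 6.83 and 6.70 in low-dose and 7.37 and 7.16 in high-dose animals. The 3 groups did not overlap, and the high-minus-low difference was 0.51 ± 0.12 (SE), or 1.42-fold (limma adjusted p = 0.258). Its 2 other probe sets gave 0.67 and 0.19 for the same difference. Their low-dose differences from untreated were -0.37 and 0.03, both with overlapping groups, so neither repeated the full pattern. USP8 was 7.27, 7.13 and 7.17 in untreated, 7.48, 7.54 and 7.38 in low-dose and 7.10 and 7.10 in high-dose animals. Its groups did not overlap either, in the reverse order, with -0.37 ± 0.11 (SE) for high minus low (limma adjusted p = 0.332). These were 2 of 103 members with such a pattern, or 1.94%, beside 0.779% of all probe sets.

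Other conjugating enzymes differed less. UBE2R2, which works with cullin ligases, was lower at the high dose without overlap, by 0.35 ± 0.14 (SE), with untreated values of 8.02, 7.73 and 7.94 against 7.51 and 7.58. UBE2QL1 was lower at the low dose by 0.39 ± 0.17, with 7.59, 7.34 and 7.02 in untreated against 7.02, 7.05 and 6.70 in low-dose animals, and its groups overlapped. UBE2B, the brightest UBE2 probe set, differed by 0.04 ± 0.17 and -0.18 ± 0.15 at the high and low dose, and UBE2W, the dimmest, by 0.12 ± 0.19 and -0.04 ± 0.17. The UBE2 median was -0.04 at the high dose and -0.03 at the low dose; both turned positive without untreated replicate 1, at 0.05 and 0.04, as did the first without high-dose replicate 2 (0.03) and the second without low-dose replicate 1 (0.04). Of the UBE3 ligases, UBE3A, the HECT ligase lost in Angelman syndrome, differed by 0.06 ± 0.13 at the high dose and UBE3D by 0.21 ± 0.17.

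USP deubiquitinases were higher than untreated in 12 of 16 cases at the high dose and 10 of 16 at the low dose. The medians were 0.08 and 0.07, and the low-dose median was -0.01 without untreated replicate 3. At the high dose 4 were higher and 1 lower without overlap, or 25% and 6.25%. Among all probe sets these shares were 14.7% and 12%. The high-dose lean was close to that of the proteasome genes, with 27 of 37 higher and a median of 0.09. USP10, which acts on p53 among other proteins, was 8.94, 9.04 and 8.88 in untreated, 9.06, 9.12 and 9.11 in low-dose and 9.22 and 9.25 in high-dose animals. The 3 groups did not overlap, in the order of dose, with 0.28 ± 0.11 (SE) at the high dose and 0.14 ± 0.10 at the low dose. A dimmer USP10 probe set did not repeat this, with a high-dose difference of -0.05. USP10, PSMB10 and TRIM26 were the members whose doses both lay above untreated without overlap, 2.91% beside 1.61% of all probe sets; UBE2C was the member with both below, 0.971% beside 1.13%. USP24 was 9.44, 9.38 and 9.71 in untreated, 9.83, 9.55 and 9.84 in low-dose and 9.85 and 9.84 in high-dose animals. Its high-dose animals were above all untreated ones, and low-dose replicate 2 lay among the untreated. USP28, the brightest USP probe set, differed by -0.13 ± 0.15 at the high dose, and USP30, a mitochondrial deubiquitinase, stayed near background in all groups, with means of 3.68 to 3.71.

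F-box proteins include FBXO32, the atrogin-1 ligase of muscle. It was 11.13, 10.84 and 10.86 in untreated, 9.27, 10.69 and 10.05 in low-dose and 10.87 and 10.54 in high-dose animals. All low-dose animals were below all untreated ones, and the high-dose animals reached into the untreated range. The low-dose difference was -0.94 ± 0.31 (SE), or 1.92-fold lower (limma adjusted p = 0.998), and -0.58 without low-dose replicate 1; at the high dose it was -0.24 ± 0.35. That high-dose value was -0.40 without high-dose replicate 1, -0.07 without high-dose replicate 2, -0.14 without untreated replicate 1 and -0.02 for the mean of its probe sets. A second, dimmer FBXO32 probe set was 8.15, 7.60 and 7.41 in untreated, 5.21, 7.55 and 6.89 in low-dose and 7.93 and 7.91 in high-dose animals. It too had low-dose replicate 1 lowest, with a low-dose difference of -1.18. Low-dose replicate 1 also had the widest actin gap, 6.04, whose part in these values was not tested. Of 17 listed FOXO-linked and atrophy genes, FBXO32 among them, 9 were measured; 3 were higher at the low dose, with a median of -0.14, and 4 at the high dose, with a median of -0.05.

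FBXO7, an F-box protein linked to mitophagy, was higher at the low dose by 0.63 ± 0.25 (SE; limma adjusted p = 0.998). It was 8.25, 8.56 and 8.27 in untreated, 9.58, 8.68 and 8.70 in low-dose and 8.86 and 8.45 in high-dose animals. The low-dose animals were above the untreated ones, but replicate 1 stood far above its group, and without it the difference was 0.33. The FBXO median was -0.05 at the high dose, and -0.03 to -0.09 without single animals (-0.09 without untreated replicate 1 and -0.03 without untreated replicate 3, for example). The low-dose median of 0.02 turned to -0.01 without untreated replicate 2, to -0.02 without low-dose replicate 2 and to -0.04 without untreated replicate 2 and low-dose replicate 1 together. FBXO34 was close to background in all groups, with means of 3.41 to 3.56.

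Of the TRIM ligases, TRIM55 (MuRF2), which binds titin in the sarcomere, was higher at the low dose. It was 11.52, 11.60 and 11.30 in untreated, 12.38, 11.46 and 12.19 in low-dose and 11.72 and 11.70 in high-dose animals. Low-dose replicates 1 and 3 were the highest and replicate 2 lay within the untreated range, so the groups overlapped. The difference was 0.54 ± 0.22 (SE) at the low dose, 0.35 without replicate 1 and 0.81 without replicate 2, and 0.23 ± 0.25 at the high dose. FBXO32 and TRIM55, both muscle ligases, thus had low-dose differences of opposite sign.

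TRIM27 was 4.21, 4.48 and 4.29 in untreated, 4.82, 4.63 and 4.41 in low-dose and 4.94 and 4.81 in high-dose animals. The high-dose animals were above all untreated ones. The difference of group means was 0.55 ± 0.15 (SE), or 1.46-fold (limma adjusted p = 0.403), at a dim signal. TRIM13, a ligase of the endoplasmic reticulum, was 7.35, 6.77 and 7.94 in untreated, 6.75, 7.24 and 7.49 in low-dose and 6.13 and 6.74 in high-dose animals. Its high-dose animals were the lowest, although replicate 2 was within 0.03 of an untreated animal. The difference was -0.92 ± 0.35 (SE), or 1.89-fold lower, and -0.61 without high-dose replicate 1.

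TRIM52 was 9.28, 9.29 and 9.18 in untreated, 8.98, 9.34 and 9.08 in low-dose and 8.19 and 8.92 in high-dose animals. Both high-dose animals were below all others, with replicate 1 far below replicate 2. The difference was -0.69 ± 0.21 (SE), with a limma adjusted p of 0.423, and -0.33 without high-dose replicate 1. The 2 dimmer probe sets with the TRIM52 symbol gave -0.28 and -0.19, with overlapping groups. The annotation gives both another gene identifier than the brightest one. The dimmest, with a mean of 3.09, was below background on all 8 arrays. The TRIM median was -0.11 at the high dose, 0.05 without high-dose replicate 1, -0.16 without high-dose replicate 2, -0.04 without untreated replicate 1 and -0.41 when dim probe sets were left out. The low-dose median of 0.01 had no stable sign: it was -0.01 under either other scaling, -0.04 without dim probe sets and -0.02 without untreated replicate 2, but 0.10 without untreated replicate 1, untreated replicate 3 or low-dose replicate 1. TRIM59 was below background in all groups, with means of 2.69 to 2.85.

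**Figure D5:**
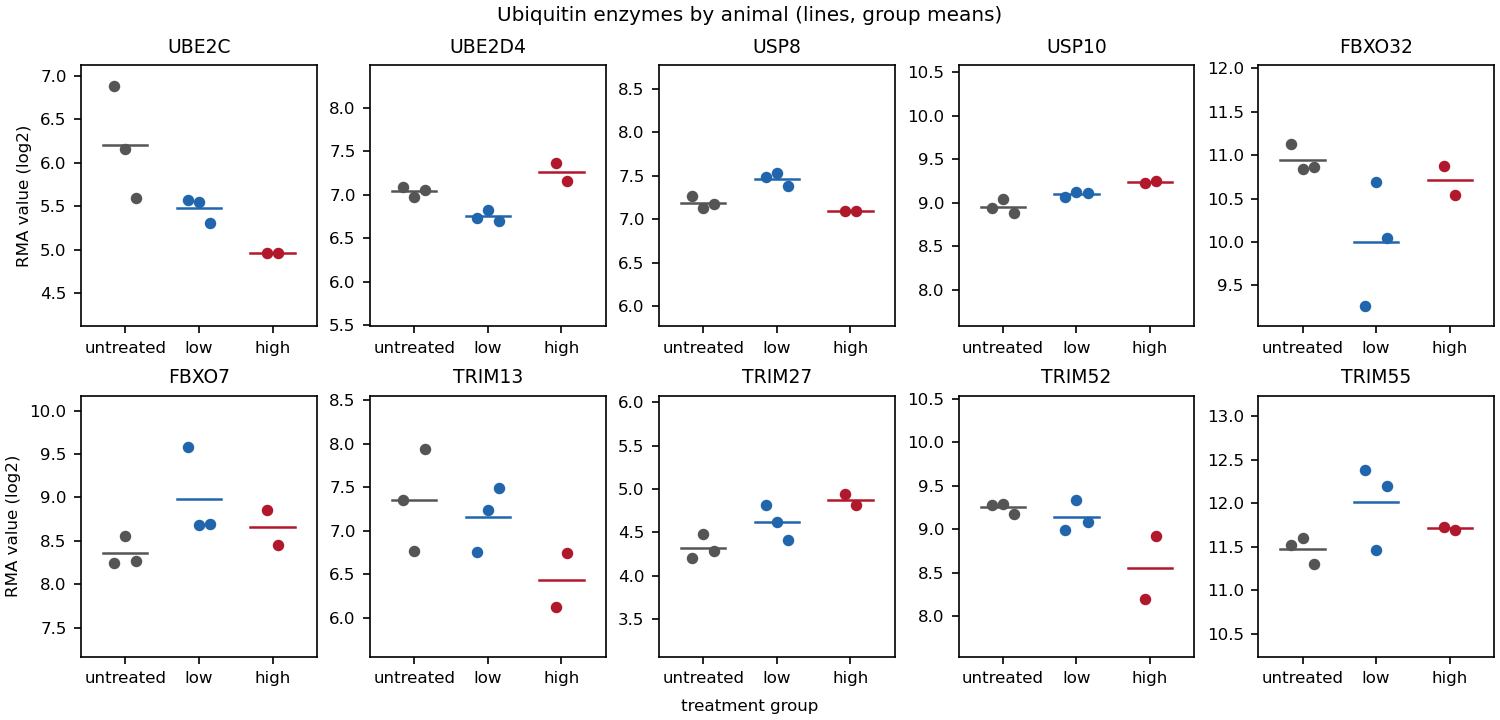
RMA values (y axis, log2) of 10 ubiquitin enzymes in each animal, by treatment group (x axis); points are animals and lines are group means, and each panel spans the same range of log2 units. UBE2C has both high-dose animals at 4.96 below the other 6, FBXO32 has low-dose replicate 1 at 9.27, and FBXO7 has the same animal highest at 9.58.

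Counting all 103 members, 11 had an unadjusted limma p under 0.05 at the high dose (7 higher, 4 lower). That is 10.7%, beside 7.97% of all probe sets and 9.56% of all named genes. Named genes are the like base, being taken by brightest probe set too. Their share was 3.87% at the low dose, 11.2% for high against low dose and 5.42% for both doses as 1 group. Without high-dose replicate 1 the members' count was 3, without untreated replicate 1 it was 6 and without untreated replicate 3 it was 5. The share of all probe sets was not counted again with arrays left out, here or in the comparisons below. Such changes in the count therefore cannot be set against those of other genes. The low-dose count was 8 (3 higher, 5 lower), or 7.77% beside 4.5%, and 5 without either untreated replicate 1 or low-dose replicate 1. For high against low dose it was 7 (5 higher, 2 lower), or 6.8% beside 10.2% (4.38% higher, 5.85% lower). Leaving out low-dose replicate 1 gave 11 there and leaving out high-dose replicate 1 gave 4. With both doses as 1 group it was 8 (6 higher, 2 lower), or 7.77% beside 4.83% (2.43% higher, 2.41% lower). That count was 2 without high-dose replicate 1, 5 without high-dose replicate 2, 3 and 5 without untreated replicates 1 and 3, and 5 and 4 without low-dose replicates 1 and 3. Of the 103, 24 were higher and 10 lower at the high dose than untreated without overlap, or 23.3% and 9.71% beside 14.7% and 12% of all probe sets. For the low dose it was 6 and 6, or 5.83% each beside 5.23% and 3.87%. For high against low dose it was 22 and 13, or 21.4% and 12.6% beside 13.2% and 13%. For genes with several probe sets, the 42 further probe sets had the sign of the brightest one in 23 cases at the high dose, 28 at the low dose and 26 for high against low dose.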

How the data were processed

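Left ventricular RNA of 8 pigs was hybridised to Affymetrix arrays, 1 for each animal. The authors deposited log2 expression values, made with RMA and Partek 6.6 per the submitters' processing notes; the settings used are not given in the sources here. The 24123 rows included 124 control probe sets, which were left out. Symbols came from the supplied platform annotation: 10069 probe sets carried 1 symbol, 198 several and 13732 none.

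limma 3.58.1 in R 4.3.3 fitted 1 mean per group to all 8 arrays (5 residual and 3.50 prior degrees of freedom), with Benjamini-Hochberg adjustment over 23999 probe sets in each contrast. The fit was tested on simulated data. Members and lists were chosen with earlier results of these data known. Named genes were members fixed by role, members with the smallest unadjusted p under 0.05 (at most 8 in each direction), and the brightest and dimmest of each subgroup; genes such as PSMC6, PSMD3, PSMD13, PSME4 and TRIM26 were added after their values were seen. TRIM63, TRIM54, TRIM72, PSMB9 and USP14 are among the genes not analysed here. The other lists were those for the heart and ubiquitin pathway: cell types, interferon, FOXO, cell cycle, heat shock, immediate early and further ubiquitin genes. There is no read depth on arrays; their number limits precision. The alternatives were other variance priors, array weights, scalings, filters, thresholds and probe set means, and leaving out arrays.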

Additional observations from a re-analysis of the deposited data

How the results depend on the processing

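No member passed in any comparison under any alternative run. Over 49 results of single named members, 858 of 872 alternative values kept their direction and their side of the threshold, and 14 reversed. Many of these members were picked for a small unadjusted p in these same data, which favours a kept direction. With no member passing anywhere, the side of the threshold did not change either. The count is therefore no measure of how stable the results are. PSMB8 reversed at the high dose without untreated replicate 3 (0.48) and without high-dose replicate 2 (0.11), within -0.39 to 0.48 without single animals. At the low dose it reversed without untreated replicate 3 (0.25) or low-dose replicate 3 (0.03), within -0.62 to 0.25. Low-dose differences near 0 also reversed. PSMD4 reversed with median centring (-0.022), without untreated replicates 2 and 3 and low-dose replicate 2, within -0.054 to 0.044 without single animals, and without the tag neighbours (-0.0045). These are untreated replicate 2 and low-dose replicate 1, the pair with adjoining tag numbers in different groups; within groups, untreated replicates 1 and 3 and both high-dose animals adjoin too, and what the tags stand for is not stated. PSMD11 reversed with renewed quantile normalization (0.031), without untreated replicate 1 or low-dose replicate 1, within -0.046 to 0.063, and without the tag neighbours (0.023). PSME2 reversed without untreated replicate 1, within -0.0076 to 0.15. Probe sets passing at the high dose, 0 as reported, numbered 4 with an intensity trend, 7 with a robust prior, 3 with median centring, 9 with renewed quantile normalization, 13 with array weights, 2 with only the groups compared, 10 at an adjusted p under 0.1, 55 without the tag neighbours, and 0 to 19 without single animals. In low-dose and pooled comparisons 1 passed without the tag neighbours. For high against low dose, 6 as reported, it was 1 without dim probe sets, 10 with array weights, 0 with only the groups compared, 14 at an adjusted p under 0.1, 12 without the tag neighbours and 0 to 7 without single animals. The share of all probe sets with an unadjusted p under 0.05 was not counted under the alternatives. Members with an unadjusted p under 0.05 numbered 3 to 12 at the high dose without single animals. In low-dose animals they were 5 with the trend, 4 without the tag neighbours and 5 to 8 without single animals. For high against low dose they were 11 with median centring and 4 to 11 without single animals. For both doses they were 5 with the trend, 4 without dim probe sets, 5 with renewed quantile normalization and 2 to 8 without single animals. The members' median for high against low dose, 0.10, was 0.043 without the tag neighbours and 0.043 to 0.10 without single animals. The cause was not tested. No paired analysis was possible because the labels carry no replicate numbers. A mean over probe sets gives no count of probe sets. Precision is limited by 2 to 3 animals in a group and, for dim probe sets, by background.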

Other observations

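Further genes of the pathway, outside the named families, were also measured: 48 of 104 listed. At the high dose 32 of the 48 were higher than untreated, with a median of 0.06, and at the low dose 16 were, with a median of -0.04; 34 were higher at the high than at the low dose. No gene of the list passed the limma test at the high dose, and 3 had an unadjusted p under 0.05: FBXW7 and OTUB1 higher and UBA3 lower. That is 6.25%, below the 7.97% of all probe sets, and the genes are named as a description. FBXW7, the substrate receptor of a cullin ligase, was 9.39, 9.52 and 9.37 in untreated, 9.65, 9.32 and 9.61 in low-dose and 10.14 and 9.97 in high-dose animals. Both high-dose animals were above the other 6, and their mean exceeded untreated by 0.63 ± 0.14 (SE; limma adjusted p = 0.337). OTUB1, a deubiquitinase, was 6.67, 6.65 and 6.47 in untreated, 6.70, 6.65 and 6.43 in low-dose and 7.09 and 6.90 in high-dose animals. UBA3, part of the enzyme that activates NEDD8, averaged 9.64 ± 0.18 in untreated (SD, n = 3), 9.51 ± 0.22 in low-dose (n = 3) and 9.26 ± 0.05 in high-dose animals (n = 2). UBB, a polyubiquitin gene, averaged 14.23 ± 0.03, 14.18 ± 0.11 and 14.33 ± 0.12 in the same order.

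Heat shock genes, whose products refold proteins that would otherwise be degraded, were measured for 16 of 17 listed. At the high dose 14 of 16 were higher than untreated, with a median of 0.48, and 12 were higher without overlap, or 75.0% beside 14.7% of all probe sets. Their mean level, each gene centred on its mean over the 8 arrays, was -0.34 to 0.01 in untreated, -0.21 to 0.11 in low-dose and 0.26 to 0.37 in high-dose animals. HSPA8, the constitutive chaperone of that family, was 12.74, 12.91 and 12.68 in untreated, 12.95, 12.69 and 13.19 in low-dose and 13.55 and 13.22 in high-dose animals. Immediate early genes, which respond within minutes to stress and to growth factors, were higher in 11 of 11 measured cases (of 17 listed), with a median of 2.26; their mean level was 1.29 and 1.61 in the high-dose animals and -1.39 to 0.56 in the other 6. Mean levels of the remaining markers overlapped between high-dose and untreated animals for lymphocyte, smooth muscle and adipocyte lists. Endothelial levels were 0.03 to 0.13 in untreated and -0.22 and 0.01 in high-dose animals, and levels of 3 erythrocyte genes were 0.03 to 0.14 and -0.23 and -0.21.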
